A study of Mus musculus with 6 samples.

Results

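The transcripts of 9 genes of the interleukin 6 (IL-6) signalling path were followed in mouse Th17 cells with and without RTF1: the receptor chains Il6ra and Il6st, the kinases Jak2 and Tyk2, and the feedback inhibitors Cish, Socs1, Socs2, Socs3 and Socs7. They were chosen by symbol from a table of 31017 genes, and 9 of 9 were found and passed the filter on low counts. Th17 cells are helper T cells that secrete interleukin 17. RTF1 is a nuclear protein that travels with RNA polymerase II and promotes ubiquitination of histone H2B, and the series asked how its loss affects Th17 differentiation. The table held 3 libraries from control cells, with the genotype label WT, and 3 from RTF1-deficient cells, with the genotype label KO, all from cultures differentiated in vitro. The strain, age, means of Rtf1 removal, cytokine mixture and culture time are not given in the sources used here. Nor do they say whether each library came from a separate animal, so p-values measure the spread between these libraries, which may be technical in part.

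IL-6 binds the alpha chain encoded by Il6ra, and this pair recruits gp130, the signalling chain encoded by Il6st and shared by several other cytokines. JAK1, JAK2 and TYK2 are kinases bound to gp130 that phosphorylate STAT3, which drives the Th17 program in T cells. SOCS proteins are induced by STAT factors and act back on the receptors: SOCS3 docks on gp130 and blocks the attached kinases, SOCS1 inhibits JAK kinases directly, and CIS (Cish) and SOCS2 are known chiefly as STAT5-induced inhibitors of interleukin 2 and growth hormone type receptors.

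Total counts per library ran from 16489813 to 51271226, and each of the 9 genes held between 836 and 20211 counts in every library. Levels are given as CPM, counts scaled to a common library total with TMM factors, which correct for differences in library make-up. As a check of the labels, Rtf1 held 94.0, 91.2 and 88.3 CPM in control replicates 1, 2 and 3 and 45.3, 30.4 and 26.2 CPM in the KO replicates. The KO libraries thus kept 37.2% of the control level. T cell markers (Cd3e, Cd3d, Cd3g, Cd4 and Cd5) summed to 1381 to 1625 CPM in control and 1214 to 1422 CPM in KO libraries, and all 6 Th17 markers were detected. The T cell sum hides opposite changes. Mean Cd4 went from 486 CPM in control to 254 in KO and Cd5 from 503 to 331, while Cd3e went from 199 to 326, each without overlap between groups. Cd3g (151 and 250 CPM) and Cd3d (203 and 147 CPM) overlapped between groups. The summed Th17 markers ran from 1602 to 2134 CPM in control and from 593 to 1252 CPM in KO. Replicate 3 held 11376 counts of 4 Y-linked genes in control and 5147 in KO, with 5 and 1 counts of Xist, where the other 4 libraries held 1 to 3 Y-linked counts and 14668 to 28176 of Xist. Replicate 3 of each group thus came from male cells and replicates 1 and 2 from female cells, so that at least these do not share an animal.

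**Figure D1:**
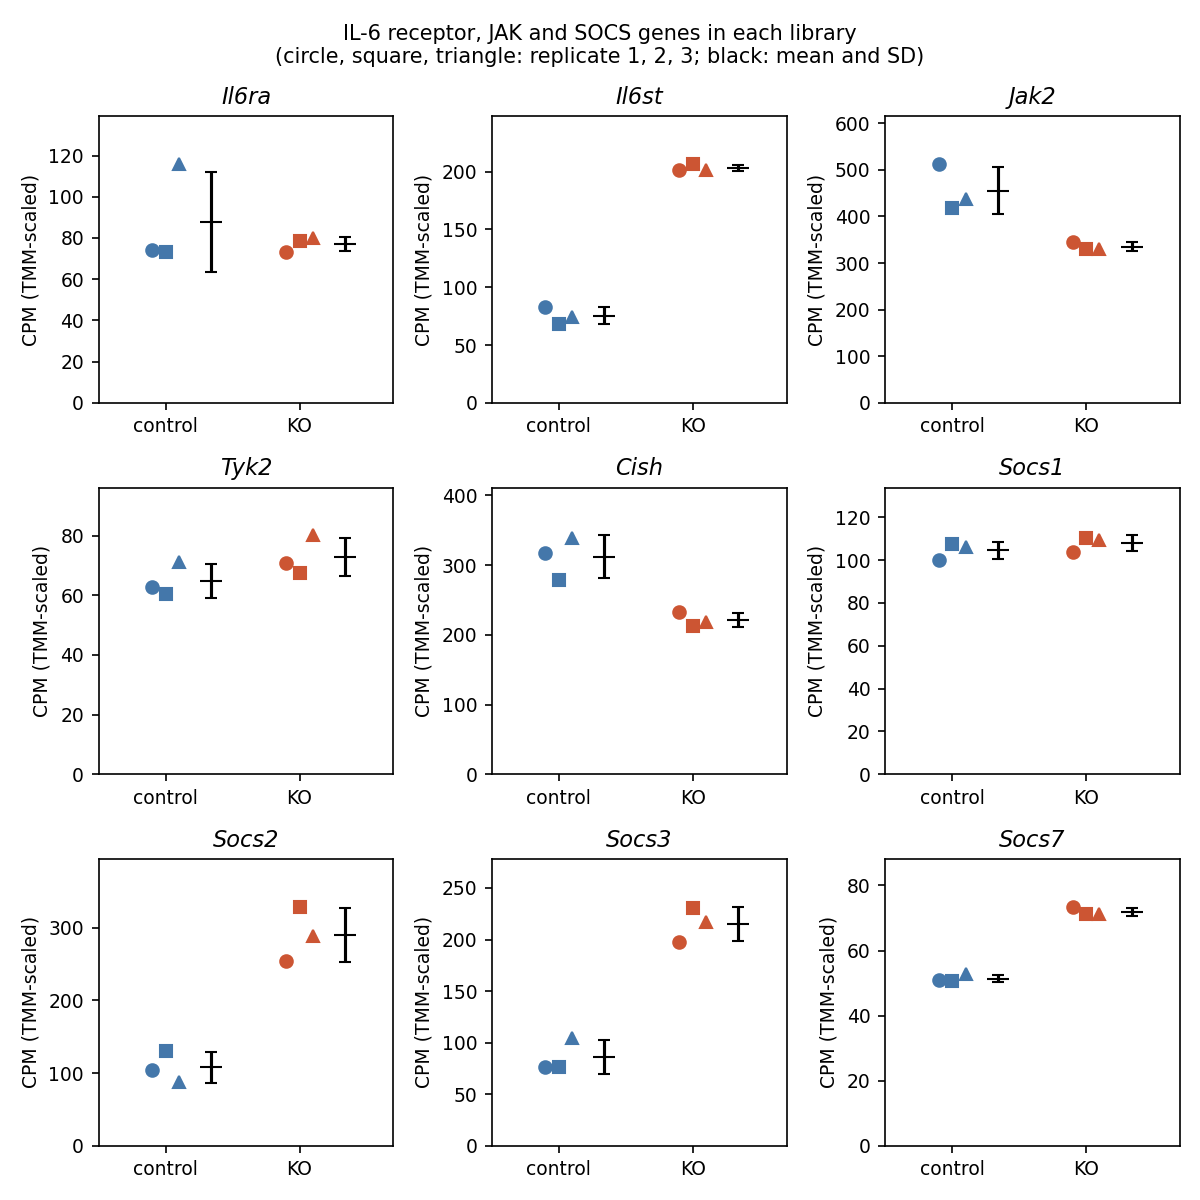
TMM-scaled CPM (vertical axis, from 0) of the 9 genes in the 3 control (blue) and 3 KO (orange) libraries, with the mean and SD of each group in black. Il6st, Socs2, Socs3 and Socs7 lie higher in every KO library than in any control library, Jak2 and Cish lie lower, and Il6ra, Tyk2 and Socs1 overlap.

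Of the 9 genes, 4 rose in KO cells (Il6st, Socs2, Socs3 and Socs7) and 2 fell (Jak2 and Cish) at an edgeR p-value, adjusted by the Benjamini-Hochberg (BH) method over all tested genes, under 0.05, while Il6ra, Tyk2 and Socs1 did not pass. Across all 14268 tested genes, 46.1% passed, 23.2% upward and 22.9% downward, and against that background 6 of 9 is not taken as a result about these genes. The groups did not overlap for the same 6 genes, against 57.9% of all tested genes. The median log2 change, KO minus control, was 0.17 over the 9 genes and 0.013 over all tested genes. Because these are bulk libraries, fewer cells that express a gene and less RNA per cell cannot be told apart.

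The shared signalling chain Il6st rose steeply. It held 83.2, 68.6 and 74.4 CPM in control replicates 1, 2 and 3 and 201, 206 and 201 CPM in KO replicates 1, 2 and 3. Every KO library was thus well above every control library, and the KO libraries differed little among themselves. The means were 75.4 ± 7.38 and 203 ± 2.98 CPM (n = 3, ± SD), which is a log2 change of 1.43 (SE 0.112, edgeR BH-adjusted p = 0.000104) or 2.69-fold. Of all tested genes, 8.05% rose by a larger fold, a share that leaves out genes that fell. The gene lies at chr13:112464070-112510086 (GRCm38), and none of its exonic bases overlapped another gene.

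The IL-6 binding chain Il6ra did not pass the test. Its control libraries held 74.4, 73.0 and 116 CPM and its KO libraries 73.0, 78.4 and 79.8 CPM. Control replicate 3 stood above the other 5 libraries, which lay together between 73.0 and 79.8 CPM. The means were 87.7 ± 24.3 and 77.1 ± 3.56 CPM (n = 3, ± SD, log2 change −0.19, SE 0.179, edgeR BH-adjusted p = 0.414). Without control replicate 3 the log2 change was 0.0075, so the direction rests on that library. Il6ra lies at chr3:89864059-89913196, and 2.80% of its exonic bases overlap Gm42809 on the other strand.

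The ratio of the receptor chains did not overlap between the groups. Per kilobase of the principal transcript, Il6st stood at 0.431, 0.362 and 0.247 of the Il6ra level in control replicates 1, 2 and 3, and at 1.06, 1.01 and 0.972 of it in the KO replicates. The mean ratio was 2.93 times as high in KO as in control, 1.02 ± 0.0450 against 0.347 ± 0.0928 (n = 3, ± SD). A two-sided exact permutation test over the 6 libraries gave p = 0.1, which is the lowest this design can reach. The size of each ratio depends on the gene lengths used, but its fold change between groups does not.

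**Figure D2:**
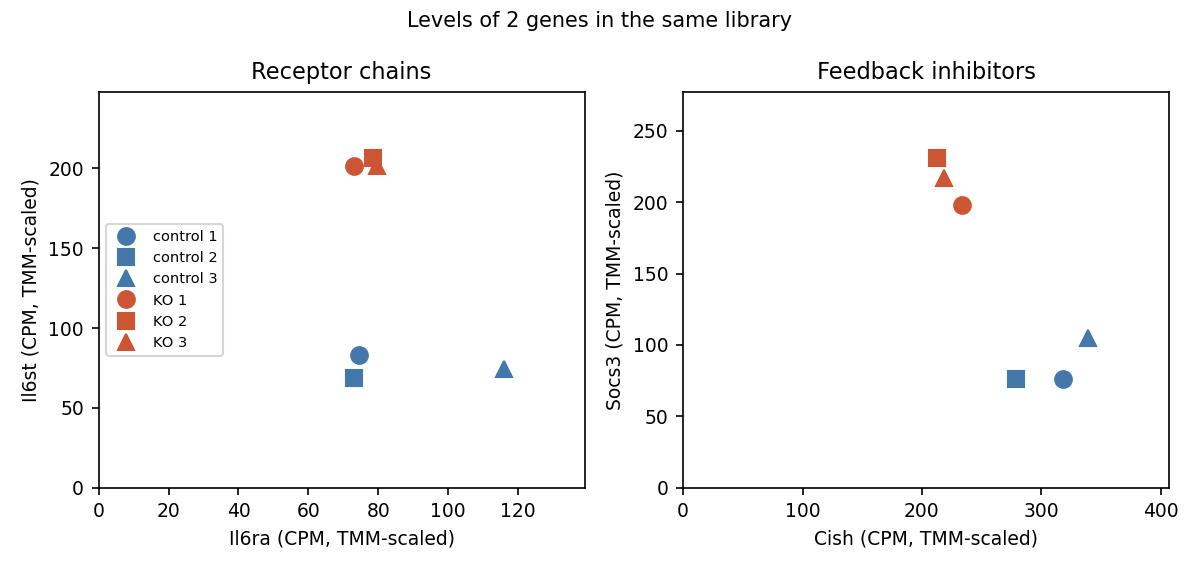
Levels of 2 genes in the same library in TMM-scaled CPM, Il6ra (horizontal) against Il6st (vertical) on the left and Cish against Socs3 on the right; blue is control, orange is KO, and circle, square and triangle are replicates 1, 2 and 3. The KO libraries stand apart along Il6st (201 to 206 CPM) but not along Il6ra, and along both axes of the right panel, with Cish lower and Socs3 higher.

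Of the kinases, Jak2 fell and Tyk2 did not pass the test. Jak2 held 512, 417 and 437 CPM in control and 346, 329 and 329 CPM in KO libraries. All KO libraries were below all control libraries, and control replicate 1 was the highest. The means were 455 ± 50.3 and 335 ± 9.38 CPM (n = 3, ± SD, log2 change −0.44, SE 0.122, edgeR BH-adjusted p = 0.0168), so that 73.5% of the control level remained. It no longer passed in 3 of the 6 leave-one-out fits: without control replicate 1 (adjusted p = 0.0509), KO replicate 2 (0.0746) or KO replicate 3 (0.0614), in a range of 0.00596 to 0.0746 over all alternatives, and the log2 change stayed between −0.53 and −0.36. Jak2 lies at chr19:29251828-29313080.

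Tyk2, a kinase also used by the receptors for interferons and interleukins 12 and 23, held 62.7, 60.4 and 71.3 CPM in control and 70.9, 67.5 and 80.1 CPM in KO libraries. The groups overlapped, and the log2 change was 0.17 (SE 0.119, edgeR BH-adjusted p = 0.274). Of its exonic bases, 8.07% overlap 1700084C06Rik on the other strand, and whether strand was used in counting is not given in the sources used here. Tyk2 lies at chr9:21104068-21131243.

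Jak1, the kinase that also pairs with gp130, moved the other way from Jak2 and rose from 323 ± 15.1 to 507 ± 29.1 CPM (n = 3, ± SD, log2 change 0.65, SE 0.113, edgeR BH-adjusted p = 0.00228). Jak3, the kinase of the common gamma chain, stood at 279 ± 37.1 and 359 ± 26.8 CPM (log2 change 0.36, adjusted p = 0.0522), and passed with the replicate number as a block (adjusted p = 0.0160), without control replicate 3 (0.0322) and in 2 other alternatives, in a range of 0.0160 to 0.217. Per kilobase of the principal transcript, the Jak1 level was 0.613, 0.825 and 0.770 of the Jak2 level in control replicates 1, 2 and 3, and 1.41, 1.59 and 1.66 of it in the KO replicates. The ratio was higher in every KO library than in any control library (two-sided exact permutation test, p = 0.1, the lowest that 3 against 3 libraries can give).

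Among the feedback inhibitors, Socs3, the main brake on gp130, rose. It held 76.4, 76.0 and 105 CPM in control and 198, 231 and 217 CPM in KO libraries. The lowest KO library was above the highest control library, which was control replicate 3. The means were 85.7 ± 16.5 and 215 ± 16.6 CPM (n = 3, ± SD, log2 change 1.33, SE 0.151, edgeR BH-adjusted p = 0.000395), a rise of 2.51-fold. Socs3 lies at chr11:117966079-117970047, with no exonic overlap with another gene.

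Socs2 rose about as much. Its control libraries held 104, 131 and 87.8 CPM and its KO libraries 255, 329 and 289 CPM. Replicate 2 was the highest library in both groups, and the groups were far apart. The means were 108 ± 21.8 and 291 ± 37.1 CPM (n = 3, ± SD, log2 change 1.43, SE 0.169, edgeR BH-adjusted p = 0.000457). Of its 50-base stretches, 4.58% also occur in transcripts of other genes, mainly Gm9847. Socs2 lies at chr10:95385362-95417180.

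Cish, like Socs2 known as a STAT5-induced gene, fell. It held 318, 279 and 339 CPM in control and 233, 213 and 218 CPM in KO libraries. No KO library reached the lowest control library. The means were 312 ± 30.6 and 221 ± 10.6 CPM (n = 3, ± SD, log2 change −0.49, SE 0.119, edgeR BH-adjusted p = 0.00937), leaving 71.0% of the control level. Without KO replicate 2 the adjusted p was 0.0520, in a range of 0.00164 to 0.0520 over all alternatives. Cish lies at chr9:107296026-107302784, and 11.5% of its exonic bases overlap Gm17040 and Gm17041 on the other strand.

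Socs1, the inhibitor best known for restraining interferon signalling, did not pass the test. It held 100.1, 108 and 106 CPM in control and 104, 110.5 and 109 CPM in KO libraries, and the groups overlapped. The means were 105 ± 3.94 and 108 ± 3.56 CPM (n = 3, ± SD, log2 change 0.045, SE 0.0984, edgeR BH-adjusted p = 0.734), and the direction flipped without control replicate 1 (−0.054) and without control replicate 3 (−0.0045). Socs1 lies at chr16:10782240-10785536. In the same libraries Stat2, a STAT factor of the interferon response, rose from 68.5 ± 19.5 to 168 ± 38.0 CPM (log2 change 1.29, adjusted p = 0.00223).

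Socs7, a less studied member of the family, rose by a smaller step with little spread. It held 50.8, 50.7 and 52.6 CPM in control and 73.4, 71.1 and 71.1 CPM in KO libraries (log2 change 0.48, SE 0.0996, edgeR BH-adjusted p = 0.00471), and the groups did not overlap. Socs7 lies at chr11:97362551-97398542. Of the other family members, Socs5 rose from 11.1 ± 0.650 to 22.4 ± 3.95 CPM (n = 3, ± SD, log2 change 1.02, adjusted p = 0.00178), while Socs4 (0.31, adjusted p = 0.0614, and 0.0374 without KO replicate 3, in a range of 0.0244 to 0.219) and Socs6 (0.26, adjusted p = 0.127) did not pass.

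**Figure D3:**
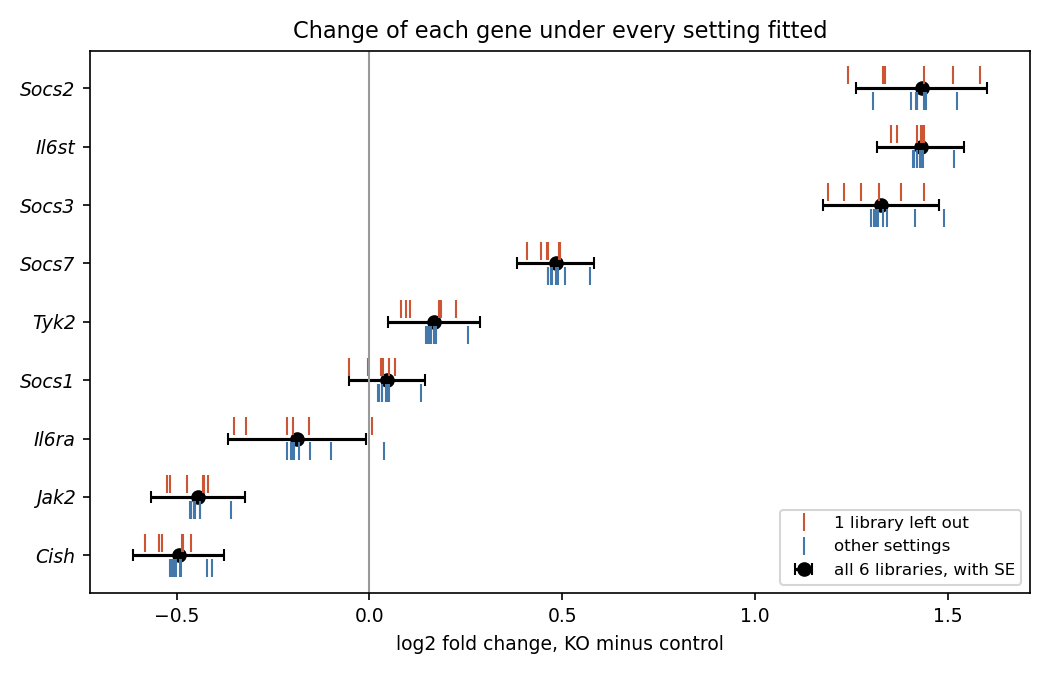
Log2 change, KO minus control, of the 9 genes (horizontal axis): black points with SE bars use all 6 libraries, orange ticks leave out 1 library each, and blue ticks are the other settings fitted. Socs2, Il6st, Socs3 and Socs7 stay above 0 and Jak2 and Cish below 0 throughout, while Il6ra and Socs1 cross 0.

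The promoters of Socs3 and Cish are shown because these feedback genes changed in opposite directions and because both hold the core of a STAT site. The letters TTCNNNGAA, which read the same on both strands, were searched in 300-base windows, 250 bases before to 50 after each RefSeq start (RefSeq, GRCm38.p6). Of the 7 genes with a window (Il6ra, Il6st, Jak2, Tyk2, Socs1, Socs3 and Cish), Socs3 held 1 match and Cish held 2, while 8.30% of all 32851 windows held at least 1. The narrower form TTCCNGGAA, all of whose matches are also matches of the first, occurred in Cish and in 1.15% of all windows. The Socs3 match spans positions −154 to −146 before the start, and the Cish matches span positions 1 to 9 and 12 to 20 counted from the start as 1. The Il6st stretch is shown beside them as that of the receptor gene that rose. The Socs3 and Cish windows lie wholly inside the GENCODE spans of these genes (chr11:117966079-117970047 and chr9:107296026-107302784). The RefSeq start used for each is thus not the outermost GENCODE start, and the stretch before it is within the annotated gene. The Il6st stretch ends directly before its GENCODE span. Which start these cells use was not tested. A match is a description of the letters only. Capitals mark the matches in the sequences, each written 5′ to 3′ on the gene's own strand.
Socs3, 250 bases before the start, minus strand, chr11:117969367-117969616: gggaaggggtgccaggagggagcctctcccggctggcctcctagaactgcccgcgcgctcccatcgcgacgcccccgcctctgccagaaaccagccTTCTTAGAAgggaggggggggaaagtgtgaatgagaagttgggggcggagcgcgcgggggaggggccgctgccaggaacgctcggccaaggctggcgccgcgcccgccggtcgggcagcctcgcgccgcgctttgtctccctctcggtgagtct
Cish, 30 bases around both matches, plus strand, chr9:107296654-107296683: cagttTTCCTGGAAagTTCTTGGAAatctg
Il6st, 250 bases before the start, plus strand, chr13:112463820-112464069: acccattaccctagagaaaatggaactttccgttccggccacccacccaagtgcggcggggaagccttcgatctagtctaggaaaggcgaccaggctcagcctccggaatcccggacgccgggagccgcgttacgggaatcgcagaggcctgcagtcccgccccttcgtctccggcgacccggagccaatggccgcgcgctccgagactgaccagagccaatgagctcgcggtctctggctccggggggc
The upstream parts of the Socs3 and Il6st windows were 71.6% and 66.0% G or C, and that of Cish 55.2%, beside a median of 52.4% over all windows. 

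The make-up of the SOCS family was set out library by library. Per kilobase of the principal transcript, the 8 family genes (Cish and Socs1 to Socs7) summed to 252 ± 7.83 CPM in control and 363 ± 22.1 CPM in KO (n = 3, ± SD). Cish took 45.1%, 39.6% and 45.6% of this sum in control replicates 1, 2 and 3 and 23.9%, 19.3% and 21.3% in the KO replicates. Socs2 took 19.0%, 23.8% and 15.2% in control and 33.4%, 38.3% and 36.2% in KO libraries. The Socs3 share was 12.1%, 12.0% and 15.7% in control and 22.6%, 23.4% and 23.6% in KO libraries. The share of Cish was thus lower, and those of Socs2 and Socs3 higher, in every KO library than in any control library. Shares of 1 sum move together, so a share can fall where the level does not. The Socs1 share fell from 14.3 ± 0.579% to 10.2 ± 0.361% without overlap, although the Socs1 level did not pass its test. The shares of Cish, Socs1, Socs2 and Socs3 each gave p = 0.1 in the same permutation test. This is before any adjustment over the 8 shares compared, so that none can pass 0.05.

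In control cells the order of levels per kilobase was Cish (109 ± 10.7 CPM), Socs2 (48.5 ± 9.79), Socs1 (36.0 ± 1.35), Socs3 (33.6 ± 6.45), Socs4 (10.3 ± 0.309), Socs7 (7.33 ± 0.155), Socs6 (4.20 ± 0.230) and Socs5 (2.38 ± 0.140). The Socs3 libraries overlapped those of Socs2 and of Socs1 there, while every Socs2 library lay above every Socs1 library, all per kilobase of the principal transcript. In KO cells Socs2 (131 ± 16.7 CPM per kilobase) came first, with Socs3 (84.3 ± 6.51) and Cish (77.7 ± 3.71) next and overlapping, then Socs1 (37.1 ± 1.23). With the union of all exons as gene length, a choice made after the data were seen, Socs2 dropped to 30.5 ± 3.89 CPM per kilobase in KO and Socs3, at 74.4 ± 5.74, came first. Every KO library of Socs3 then lay above every KO library of Cish (34.5 ± 1.65), which overlapped Socs1. Cish came first in control under both lengths, but the order below it changed. With the union of exons it was Socs1 (36.0 ± 1.35), Socs3 (29.6 ± 5.70) and Socs2 (11.3 ± 2.28) in control. Every control library of Socs2 then lay below every control library of Socs1 and of Socs3.

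**Figure D4:**
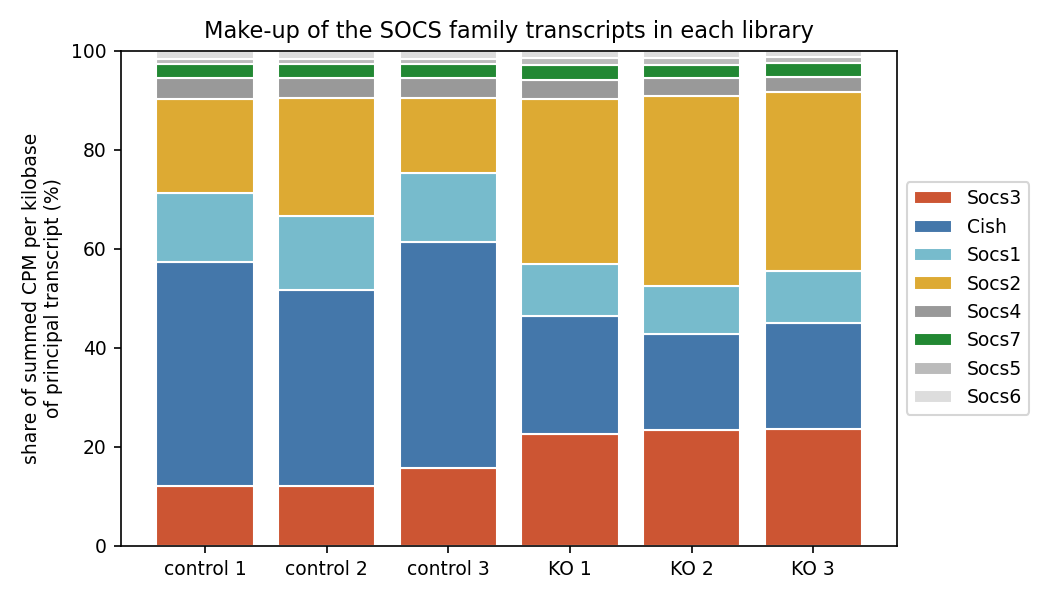
Share of each of 8 SOCS family genes (percent, vertical axis, from 0 to 100) in their summed CPM per kilobase of principal transcript, 1 bar per library. The Cish part shrinks from 39.6% to 45.6% in control libraries to 19.3% to 23.9% in KO libraries, while the Socs2 and Socs3 parts widen.

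A further 64 genes of the path, in 7 lists, placed these changes in context. Of their 58 tested genes, 22 passed upward and 11 downward, against 23.2% and 22.9% of all tested genes. One of the 22, Il6, passed the filter on low counts through its KO libraries alone and so had to differ, which leaves 21 upward of 57. They are taken in the order of ligands, receptors, kinases and STAT factors, inhibitors and targets.

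Among the ligands, 6 of 9 were tested. Of the 5 besides Il6, 1 rose and 3 fell, with a median log2 change of −0.72. Lif, a ligand of gp130 paired with the LIF receptor, fell from 796 ± 60.3 to 162 ± 29.8 CPM (n = 3, ± SD, log2 change −2.30, SE 0.161, edgeR BH-adjusted p = 6.87e-05). Il21, a STAT3-activating cytokine of Th17 cells, was among those that fell (−2.16), as was Ebi3 (−0.72, adjusted p = 0.0373). The call of Ebi3 was lost without control replicate 2 (adjusted p = 0.0769), KO replicate 1 (0.0942) or KO replicate 2 (0.127) and when scaled by total counts alone (0.0534), in a range of 0.00349 to 0.127. Clcf1 rose from 5.27 ± 1.67 to 14.2 ± 2.53 CPM (1.43, adjusted p = 0.0031). Il6 itself was barely detected, with 2, 1 and 3 counts in control and 21, 31 and 23 counts in KO libraries, at least 8.85-fold higher when each control library is set to a floor of 3 counts. Osm, at 49.6 ± 5.21 and 49.6 ± 2.26 CPM, gave an edgeR BH-adjusted p of 0.996.

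Of 11 other receptor chains, 8 were tested, with 3 higher and 2 lower (median log2 change 0.15). The gp130 partner Il27ra fell from 58.5 ± 4.05 to 31.5 ± 5.47 CPM (n = 3, ± SD, log2 change −0.89, SE 0.147, edgeR BH-adjusted p = 0.00178), and Il23r fell by 1.35 on the log2 scale, a call lost without KO replicate 1 (adjusted p = 0.0655) or KO replicate 2 (0.0845), in a range of 9.39e-05 to 0.0845. The interleukin 10 receptor chains Il10ra (1.77, adjusted p = 0.00665) and Il10rb (1.52, adjusted p = 0.000355) and the common gamma chain Il2rg (0.67, adjusted p = 0.00367) rose. The interleukin 21 receptor Il21r, at 208 ± 42.8 and 266 ± 30.4 CPM, did not pass (0.35, adjusted p = 0.105), but passed with the replicate number as a block (0.0160), without control replicate 3 (0.0214) and in 2 other alternatives, in a range of 0.0160 to 0.407. The receptor chains for LIF, oncostatin M and ciliary neurotrophic factor (Lifr, Osmr and Cntfr) held at most 5, 12 and 0 counts in any library and were not tested.

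Among the other JAK and STAT genes, Jak1, Stat2 and Stat5a (0.50, adjusted p = 0.0213) rose. Stat5a lost its call without control replicate 2 (adjusted p = 0.0664) or KO replicate 3 (0.0842) and with replicates 1 and 2 only (0.0600), in a range of 0.00572 to 0.0842. Stat3 stood at 567 ± 10.4 and 628 ± 43.6 CPM (n = 3, ± SD, log2 change 0.15, edgeR BH-adjusted p = 0.316), without overlap between groups. Stat5b, the partner of Stat5a, stood at 344 ± 43.4 and 272 ± 20.9 CPM (−0.34, adjusted p = 0.0626, 0.0221 with the replicate number as a block and 0.0449 without control replicate 2, in a range of 0.0221 to 0.199). Stat4, which signals for interleukin 12, stood at 70.04 ± 17.2 and 50.1 ± 9.10 CPM (−0.49, adjusted p = 0.0677) and passed as lower in 6 of 14 alternatives, among them the replicate block (0.00494) and the fits without control replicate 1 (0.0289) or KO replicate 3 (0.0413), in a range of 0.00494 to 0.187.

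Of 13 other inhibitors, 6 rose and 3 fell (median 0.32), but the count that rose was 2 without control replicate 1 or KO replicate 2 and 3 without control replicate 2 or KO replicate 3. The tyrosine phosphatases split: Ptpn1 rose from 268 ± 8.85 to 428 ± 41.03 CPM (n = 3, ± SD, log2 change 0.68, edgeR BH-adjusted p = 0.00229), whereas Ptpn2, which dephosphorylates JAK1 and STAT factors, fell from 133 ± 11.8 to 70.4 ± 4.14 CPM (−0.92, adjusted p = 0.000528), and Ptpn6 (−0.61, adjusted p = 0.00481) and Ptprc (−0.58, adjusted p = 0.00444) fell as well. Ptpn11, whose product docks at the same gp130 site as SOCS3, rose by 0.39 (adjusted p = 0.0222), a call lost in 7 of 14 alternatives: DESeq2 (adjusted p = 0.0538), replicates 1 and 2 only (0.0718) and each fit that left out 1 library except the one without control replicate 2, in a range of 0.0108 to 0.112. Without control replicate 3 its log2 change was 0.25. Pias3 (0.48, adjusted p = 0.0291), Pias4 (0.45, adjusted p = 0.0235) and Sh2b3 (0.41, adjusted p = 0.0182) rose. PIAS proteins are inhibitors of STAT factors, and Sh2b3 encodes the adaptor LNK, which restrains JAK2 signalling. Each of these 3 lost its call without control replicate 1 (adjusted p = 0.139, 0.116 and 0.0649), control replicate 2 (0.0787, 0.0789 and 0.0574), KO replicate 2 (0.118, 0.0750 and 0.0744) or KO replicate 3 (0.0687, 0.0928 and 0.0534), and Pias3 also with the filter that kept any gene with a count (0.0650). Over all alternatives the range was 0.0163 to 0.139 for Pias3, 0.00931 to 0.116 for Pias4 and 0.0108 to 0.0744 for Sh2b3. Pias1 (0.32, adjusted p = 0.0521) passed with the replicate number as a block (0.0339) and in 2 other alternatives, in a range of 0.0225 to 0.232. Of the 6 genes listed for subunits of SOCS box ubiquitin ligases, Cul2 passed and the other 5 did not. Those 5 included the other listed cullin, Cul5 (log2 change −0.12, adjusted p = 0.365), so the fall of Cul2 does not stand for the list. Cul2 fell from 137 ± 8.89 to 86.1 ± 5.35 CPM (log2 change −0.67, adjusted p = 0.00162). Elob (0.30, adjusted p = 0.0862) and Eloc (0.30, adjusted p = 0.0551), the elongins that link the SOCS box to the cullin, passed as higher with the replicate number as a block (0.0421 and 0.0299) and without control replicate 2 (0.0216 and 0.0354), in ranges of 0.0216 to 0.440 and 0.0185 to 0.351.

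Of 4 genes for the proteases that shed the IL-6 receptor from the cell surface and for their regulators, 3 rose and 1 fell (median 0.42). Adam10 (0.41, edgeR BH-adjusted p = 0.014), Adam17 (0.44, adjusted p = 0.0114) and Rhbdf2 (1.35, adjusted p = 0.000285) rose, and Rhbdf1 fell from a low level of 3.15 ± 0.978 CPM to 1.04 ± 0.330 (n = 3, ± SD, log2 change −1.60, adjusted p = 0.0105). Without control replicate 1 or control replicate 3 the calls of Adam10 (adjusted p = 0.118 and 0.0754) and Adam17 (0.0838 and 0.0546) were lost. Adam10 also lost it without KO replicate 2 (0.0625), and Adam17 without KO replicate 3 (0.0524) and with replicates 1 and 2 only (0.0587). Over all alternatives the range was 0.00585 to 0.118 for Adam10 and 0.00477 to 0.0838 for Adam17.

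Of 12 genes known as STAT3 targets, 4 rose, 1 fell and 7 did not pass (median log2 change 0.24). Fos rose from 7.40 ± 1.80 to 35.6 ± 5.46 CPM (n = 3, ± SD, log2 change 2.28, edgeR BH-adjusted p = 0.000179), Bcl6 from 8.23 ± 0.895 to 42.2 ± 5.93 CPM (2.36, adjusted p = 6.78e-05), Cebpd (2.46) and Prdm1 (3.75) rose from under 2 CPM, and Myc fell from 312 ± 29.5 to 188 ± 14.6 CPM (−0.73, adjusted p = 0.00193). Bcl3 (−0.091, and 0.036 with replicates 1 and 2 only), Pim1 (−0.19) and Junb (−0.21) were among the 7 that did not pass, and all 3 overlapped between groups. Mcl1, a survival factor, stood at 232 ± 43.6 and 315 ± 50.8 CPM (0.44, adjusted p = 0.0596) and passed with the replicate number as a block (0.0238), without control replicate 3 (0.0178) and in 2 other alternatives, in a range of 0.0104 to 0.251. The list held genes that moved in both directions, and many of these genes answer to other factors too.

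Markers of cells other than T helper cells were low, but some moved with the groups. The 6 myeloid markers summed to 2.58 to 5.20 CPM in control and 16.9 to 28.5 CPM in KO libraries, of which Cd68 made up 13.3 to 25.3 CPM in KO. Cd68 rose from 3.19 ± 1.32 to 20.002 ± 6.11 CPM (n = 3, ± SD, log2 change 2.66, edgeR BH-adjusted p = 0.00079). Csf1r, the receptor for macrophage colony-stimulating factor, stood at 0.361 ± 0.135 and 1.18 ± 0.535 CPM. All 3 KO libraries but only 2 control libraries reached the filter on low counts, so its test is not taken as a result. Lyz2 held 0, 2 and 4 counts in control and 46, 11 and 8 in KO libraries and was not tested in the main fit. It was called in 9 of the 9 alternatives that kept it (log2 change 2.57 to 4.51). With so few control counts, these calls are not taken as a result. Cd14 stood at 0.302 ± 0.172 and 0.821 ± 0.338 CPM, with overlap between groups. It reached the filter in 3 KO libraries but only 1 control library. Itgam and Adgre1 held at most 3 and 5 counts in any library. The part of this list in the rises of Socs3, Il6st and Il10ra was not tested. The 6 markers of CD8 and NK cells summed to 10.8 to 15.1 CPM in control and 15.1 to 16.1 CPM in KO libraries. Of these, Eomes, a transcription factor of cytotoxic cells, stood at 0.0991 ± 0.0574 and 1.55 ± 0.603 CPM. Like Il6, Eomes passed the filter through its KO libraries alone and so had to differ. Cd8a, Cd8b1 and Klrd1 did not pass the test, and Ncr1 and Klrb1c held 0 counts in every library. The part of this list in the results was not tested. B cell markers summed to at most 3.09 CPM and fibroblast markers to at most 0.759 CPM in any library, and the 4 erythroid markers held at most 3 counts each.

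The genes whose levels followed those of 4 of the 9 genes most closely were found by Pearson correlation of log2 CPM over the 6 libraries, among 9493 genes whose mean was 5 CPM or more. For Il6st they were Mbd1, R3hcc1l and Zfyve27 (r = 0.998 for each), for Socs3 Perp, Vcpip1 and Ppm1j (0.999, 0.999 and 0.998), and for Cish Nlrc3, Snhg12 and Hdac4 (0.999, 0.998 and 0.998). Such values arise easily where groups differ: r was over 0.95 for 8.69% of the genes with Il6st, 9.25% with Socs3 and 4.22% with Cish. For Il6ra, whose groups overlapped, r was over 0.95 for 0.327% of the genes, led by Cd93, Nfkbil1 and Zc3h6 (0.996, 0.992 and 0.986). Cd93 stood at 7.44 ± 8.27 CPM in control and 3.14 ± 0.800 CPM in KO (n = 3, ± SD), so its spread lay in the control libraries. That of Il6ra lay in control replicate 3, at 116 CPM against 73.0 to 79.8 CPM in the others. The correlations with Il6ra thus rest mainly on that library.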

How the data were processed

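RNA from 3 control and 3 KO cultures was sequenced. The authors deposited raw counts per gene symbol, whole numbers without normalization, in 1 table of 31017 genes. The submitters' processing notes name STAR, featureCounts, DESeq2 and mm10, without versions. Annotation and strand setting are not given in the sources used here. Groups and replicate numbers came from the sample titles. Counts were tested with edgeR 4.0.16 (quasi-likelihood test, TMM factors, filterByExpr by group, no covariate) in R 4.3.3 over 14268 genes, with Benjamini-Hochberg adjustment and a threshold of 0.05. The SE is the log2 change over the square root of F. Alternatives were DESeq2 1.42.0, other scalings and filters, the replicate number as a block, and leaving out libraries. Scripts were tested on simulated data. Gene positions, overlaps, 50-base stretches and lengths came from GENCODE M21 (GRCm38). The longest APPRIS principal transcript gave the length, and levels per kilobase are CPM over that length. Promoters came from RefSeq.

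The members and lists, and the rule for named genes (all members, Rtf1, genes of the lists, and the 3 most correlated genes for Il6ra, Il6st, Socs3 and Cish with a standard symbol), were chosen with earlier results of these data known. Same-numbered libraries of both groups deviated together across genes (r = 0.270, 0.130 and 0.379), and each exceeded 0.1, so equal numbers were taken to pair libraries, although no label gives the meaning of a number. The block entered as an alternative only: the calls and permutation tests printed are unpaired unless a block is named. Control replicate 2 correlated more with KO replicate 1 (0.204) than with KO replicate 2. Replicate 3, with the highest of these values, was the only male library of each group. Pairing by number and shared sex cannot be told apart there, also where the number entered as a block. The tests use the spread between libraries, estimated for each gene with information from the other genes. The common biological coefficient of variation over all tested genes was 0.212. The result of 1 list gene is not reported here.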

Additional observations from a re-analysis of the deposited data

How the results depend on the processing

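Over 14 alternatives the number of the 9 genes called was 6, except without control replicate 1 or KO replicate 3 (5) and without KO replicate 2 (4, with Jak2 and Cish lost). Leaving out 1 library gave 4 to 6 of the 9 genes called, 6 to 7 without overlap, 26 to 33 of the other pathway genes called and 4460 to 7050 genes called in all. These counts are not taken as a result about the 9 genes, and the share of all tested genes without overlap is not given for these fits. Il6st, Socs2, Socs3 and Socs7 passed in 14 of 14 alternatives. The direction of Il6ra turned without control replicate 3 (0.0075) and with replicates 1 and 2 only (0.038), and that of Socs1 without control replicate 1 (−0.054) and without control replicate 3 (−0.0045). Over the fits that leave out 1 library, Il6ra ran from −0.35 to 0.0075 and Socs1 from −0.054 to 0.067. The cause was not tested. With the replicate block 6 of the 9 genes were called, the same count as without it, and 41 of the other pathway genes in place of 33; the block changed the call of none of the 9. With library size as the only scaling the median of all genes moved to 0.10, and 8 of the 9 genes did not overlap between groups. The share of all tested genes without overlap is not given for that scaling, so this count is not taken as a result about the 9 genes. With the union of exons as length, the mean Socs2 share of the family was 7.76% in control and 14.8% in KO in place of 19.3% and 36.0%. Depth kept none of the 9 genes from being tested, whereas the fold of Il6, at 1 to 3 counts in control, is limited by it.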
